A study of Homo sapiens with 16 samples.

Results

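The genes described here encode the machinery of MHC class I antigen presentation, measured as polyA RNA in HCC4006, an established human line of non-small cell lung cancer with an activating mutation of the epidermal growth factor receptor (EGFR). The 9 genes are B2M, HLA-B, HLA-C, TAP1, TAP2, TAPBP, PSMB8, PSMB9 and NLRC5. They were chosen by symbol as parts of one pathway, with earlier results of these data known. Of the 24293 loci in the deposited table, 8 of the 9 genes matched a locus by exact symbol. TAPBP was present only in loci that carry the joined symbols of ZBTB22 and TAPBP, so its values may hold reads of both genes and are given separately from the counts of 8. The study had 4 groups of 4 libraries each: cells treated for 24 hours with gefitinib and AZ1366 together (100 nM of each), with gefitinib alone (100 nM), with AZ1366 alone (100 nM), or with DMSO as vehicle. Gefitinib inhibits the EGFR kinase, and AZ1366 inhibits the tankyrases, enzymes that mark AXIN for degradation, so that blocking them stabilises AXIN and lowers beta-catenin signalling. All 16 libraries came from the same line, grown untreated for 24 hours before dosing, so every value describes 1 line at 1 dose and 1 time.

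MHC class I molecules show fragments of a cell's own proteins to CD8 T cells. The proteasome cuts proteins into peptides, and in cells exposed to interferon its catalytic subunits are exchanged for immunoproteasome subunits that change where it cuts. The TAP transporter moves peptides into the endoplasmic reticulum, where tapasin and its partners load them onto a heavy chain paired with beta-2-microglobulin, and the loaded complex travels to the surface. The genes share interferon-responsive promoter elements, and NLRC5 acts as a co-activator of several of them. Tumour cells that lose any of these parts can escape recognition by CD8 T cells, while loss of surface class I can expose them to natural killer (NK) cells.

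Among the 8 genes, PSMB9, TAP1, PSMB8 and B2M rose most with gefitinib, and the same 4 rose most with both compounds, while TAP2 was lower than with vehicle in all 3 treated groups. Against vehicle, 6 of the 8 genes rose and 1 fell with gefitinib, where 64.6% of 11647 tested loci were called, 27.7% as higher and 36.9% as lower (limma on log2(FPKM + 1), adjusted p under 0.05). With both compounds 5 rose and 1 fell, where 79.3% of loci were called, 29.9% as higher and 49.4% as lower. The ranges of the 2 groups did not overlap for 5 genes higher and 1 lower with gefitinib, against 25.2% and 35.7% of loci, and for 5 higher and 1 lower with both compounds, against 28.4% and 48.1%. With AZ1366 alone 2 rose, B2M and PSMB9, and 2 fell, TAP2 and NLRC5, where 58.4% of loci were called, 18.6% as higher and 39.8% as lower. Here 2 genes were higher and 1 lower without overlap, against 14.6% and 26% of loci. The median log2 change of the 8 genes was 0.53 with gefitinib, 0.62 with both compounds and 0.10 with AZ1366, against -0.056, -0.15 and -0.10 over all tested loci. Most tested loci were called in each of these comparisons, so a call alone says little and the sizes are given below gene by gene. FPKM, the deposited unit, divides the fragments of a gene by its transcript length and its library size, and a log2 change is in log2(FPKM + 1) throughout. The medians of all loci depend on how libraries are scaled, and the genes are best read against them. With median-ratio scaling the median over all loci was 0.0001 with gefitinib, 0.0038 with AZ1366 and 0.0027 with both compounds. Loci called higher and lower then numbered 3540 and 3534 with AZ1366 and 4708 and 4691 with both compounds. As deposited they numbered 2168 and 4633 with AZ1366 and 3488 and 5753 with both compounds. For both compounds against gefitinib they numbered 3099 and 3250 with median-ratio scaling, and 1780 and 4338 as deposited.

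**Figure D1:**
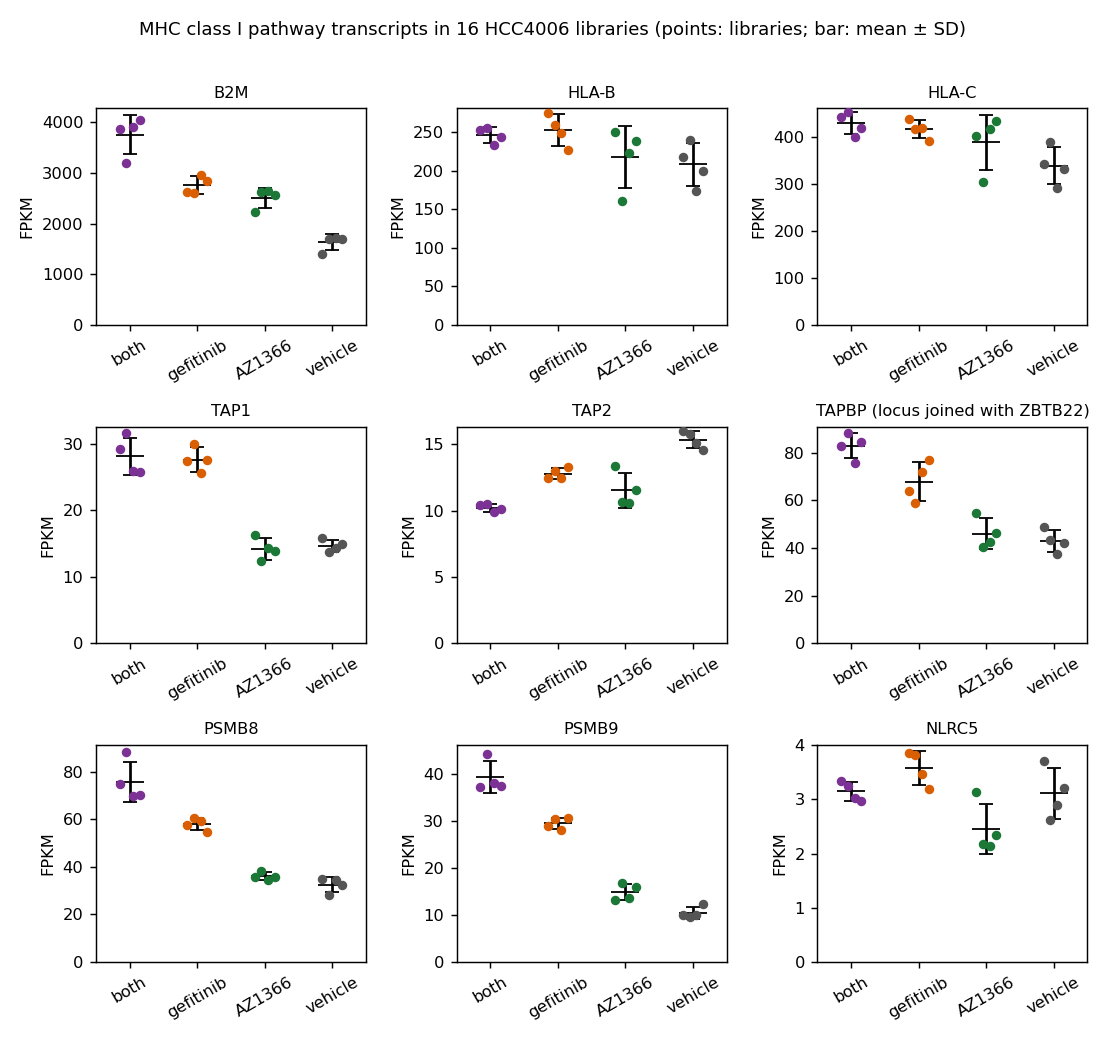
FPKM of the 9 genes in each of the 16 libraries (points), with the mean and SD of each group of 4 (bars), on axes that start at 0. PSMB9, PSMB8, TAP1 and the joined TAPBP locus are higher in the combination and gefitinib groups than in the AZ1366 and vehicle groups, B2M is highest with both compounds and lowest with vehicle, and TAP2 is highest with vehicle.

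The libraries fell into their labelled groups. On the first principal component, with 71.8% of the variance, combination libraries scored between 31.0 and 38.1, gefitinib libraries between 5.32 and 13.3, AZ1366 libraries between -19.6 and -3.10 and vehicle libraries between -39.3 and -34.0. AZ1366 replicate 1, at -19.6, stood apart from the remaining ones in its group, between -6.50 and -3.10. Whether libraries of a group derive from different cultures is not in the labels, and the spread that p-values rest on may be technical. DUSP6, a phosphatase gene transcribed in response to ERK activity, averaged 2.99 ± 0.403 FPKM with both compounds, 2.71 ± 0.235 with gefitinib, 22.8 ± 2.63 with AZ1366 and 23.5 ± 0.334 with vehicle (SD, n = 4 each). AXIN2, a target of beta-catenin, lay below 1 FPKM in all groups, at 0.0255, 0.0520, 0.0202 and 0.0746 FPKM with both compounds, gefitinib, AZ1366 and vehicle, and was not tested. All 6 epithelial markers averaged at least 1 FPKM, with a summed level of 3573 to 3964 FPKM with both compounds, 4367 to 4745 with gefitinib, 3668 to 4920 with AZ1366 and 5198 to 5922 with vehicle. With both compounds against vehicle 1 of the 6 rose and 4 fell (limma), against 29.9% and 49.4% of loci. KRT8 averaged 695 ± 26.0 FPKM with both compounds and 1454 ± 136 with vehicle (SD, n = 4 each). Means of KRT18, KRT7 and CDH1 were also lower with both compounds. EPCAM went the other way, at 292 ± 9.03 FPKM with both compounds and 229 ± 13.2 with vehicle. KRT19 averaged 793 ± 48.4 and 801 ± 54.5 FPKM in these groups. Of 7 fibroblast and endothelial markers only COL1A1 reached 1 FPKM, and their sum was 2.53 to 3.14 FPKM with both compounds, 3.17 to 3.56 with gefitinib, 1.897 to 2.58 with AZ1366 and 2.19 to 2.67 with vehicle. Of 11 lymphoid and myeloid markers, whose cells carry much class I, CD2 and MS4A1 were at 0 in every library, PTPRC did not exceed 0.139 FPKM, and only CD68 and CSF1R reached 1 FPKM. The summed level of these 11 markers was 64.3 to 70.8 FPKM with both compounds, 55.2 to 60.2 with gefitinib, 44.3 to 50.9 with AZ1366 and 37.7 to 42.2 with vehicle. CD68 alone made up 57.1 to 63.0 FPKM of it with both compounds and 33.5 to 37.5 with vehicle. CD68 and CSF1R were both called higher with gefitinib, AZ1366 and both compounds against vehicle (limma), where 27.7%, 18.6% and 29.9% of loci were. Whether the 3 marker lists bear on the class I values was not tested. In bulk RNA, fewer cells of a type and less RNA per cell cannot be told apart.

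Promoter letters are shown because class I promoters are known for elements that interferon-regulated factors and the NLRC5 complex use. RefSeq windows of 250 bases before to 50 bases after the start were found for 8 of the 9 genes (GRCh38.p14). Capitals mark matches on either strand to the core of the interferon-stimulated response element (ISRE, GAAA, any 2 bases, GAAA), the interferon-gamma activated site (GAS, TTC, any 3 bases, GAA), the Y box core (CCAAT), the X2 box core (TGACG) or the kappaB site. Where a gene has more than 1 window, the one shown holds an ISRE.

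B2M promoter, GRCh38.p14 chr15:44711328-44711427, plus strand: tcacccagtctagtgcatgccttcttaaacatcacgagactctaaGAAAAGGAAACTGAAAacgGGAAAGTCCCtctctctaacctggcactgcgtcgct
HLA-B promoter, GRCh38.p14 chr6:31357211-31357310, minus strand: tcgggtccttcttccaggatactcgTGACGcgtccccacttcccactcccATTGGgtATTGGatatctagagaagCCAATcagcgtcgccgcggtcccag
HLA-C promoter, GRCh38.p14 chr6:31272123-31272222, minus strand: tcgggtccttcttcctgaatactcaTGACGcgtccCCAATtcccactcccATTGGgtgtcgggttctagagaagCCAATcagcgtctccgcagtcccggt
TAP1 promoter, GRCh38.p14 chr6:32853784-32853883, minus strand: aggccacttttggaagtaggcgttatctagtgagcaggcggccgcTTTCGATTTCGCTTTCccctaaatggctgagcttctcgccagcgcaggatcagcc
TAP2 promoter, GRCh38.p14 chr6:32838743-32838842, minus strand: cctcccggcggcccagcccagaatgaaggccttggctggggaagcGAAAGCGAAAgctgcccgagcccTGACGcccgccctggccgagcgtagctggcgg
TAPBP promoter, GRCh38.p14 chr6:33314069-33314168, minus strand: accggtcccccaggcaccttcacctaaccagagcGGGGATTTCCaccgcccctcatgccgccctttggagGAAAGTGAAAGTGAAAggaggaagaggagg
PSMB8 promoter, GRCh38.p14 chr6:32844038-32844137, minus strand: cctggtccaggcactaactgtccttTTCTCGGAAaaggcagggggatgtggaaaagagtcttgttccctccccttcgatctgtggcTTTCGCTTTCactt
PSMB9 promoter, GRCh38.p14 chr6:32854023-32854122, plus strand: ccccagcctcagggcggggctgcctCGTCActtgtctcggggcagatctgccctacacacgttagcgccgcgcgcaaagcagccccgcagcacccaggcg

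An ISRE match stood in at least 1 window of 5 of the 8 genes, B2M, TAP1, TAP2, TAPBP and PSMB8, against 4.38% of 27305 genes counted the same way and 3.57% of 35116 single windows. TAP1 and PSMB8 have 2 windows each. The X2 core was present in 6 of the 8, for PSMB8 in the window not shown, against 28.4% of genes and 24.6% of windows. The kappaB site was present in 5 of the 8, against 13.3% of genes and 11.3% of windows. GAS letters stand in 7.66% and CCAAT in 34.6% of windows. HLA-B and HLA-C share the X2 core with CCAAT letters after it, upstream of the start, and have no ISRE match in their windows. PSMB9 shows the X2 core on the other strand. TAP2, which fell, holds an ISRE match as TAP1 and PSMB8, which rose, do. TAP1 and PSMB9 lie head to head on chromosome 6, their starts 488 bases apart. The ISRE letters shown for TAP1 lie between these starts, upstream of PSMB9 as well but outside its window. A match says only that these letters are in the window.

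B2M, the light chain common to all classical class I molecules (hg19 chromosome 15, 45003685 to 45010357), was the 8th most abundant locus of the table. It measured 3862, 3194, 3913 and 4053 FPKM with both compounds, 2624, 2603, 2963 and 2834 with gefitinib, 2221, 2616, 2642 and 2563 with AZ1366, and 1408, 1703, 1722 and 1699 with vehicle. Every treated library lay above every vehicle library, and every combination library above every library of either single compound. The log2 change against vehicle was 1.20 ± 0.087 with both compounds (adjusted p = 7.8e-10), 0.76 ± 0.087 with gefitinib (7.84e-07) and 0.62 ± 0.087 with AZ1366 (2.87e-05; limma, SE). Group means with both compounds were 2.30 times those with vehicle. B2M sat at the top of the abundance range, where quantile normalization gave smaller changes of 0.65, 0.50 and 0.33 in these comparisons, all still called. Its median transcript length is 943 bases. A correction for length and GC content, added after seeing the data, gave smaller changes of 0.86, 0.57 and 0.33, all still called.

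HLA-C, a heavy chain (chromosome 6, 31236526 to 31239913), measured 444, 453, 400.3 and 420.5 FPKM with both compounds, 439, 417, 420.3 and 392 with gefitinib, 402, 304, 417 and 435 with AZ1366, and 343, 389.9, 292 and 332 with vehicle. The combination and gefitinib libraries lay above all vehicle libraries, and the AZ1366 libraries overlapped them. The log2 change was 0.34 ± 0.098 with both compounds (adjusted p = 0.00369), 0.30 ± 0.098 with gefitinib (0.0116) and 0.19 ± 0.098 with AZ1366 (0.0987; limma, SE). The combination call was lost with quantile normalization (0.20, adjusted p = 0.0709 in limma), and the gefitinib call without vehicle replicate 3 (0.23, adjusted p = 0.0502). The AZ1366 change was called with median-ratio scaling (0.32, adjusted p = 0.00691 in limma), without AZ1366 replicate 2 (0.31, 0.00447) and without vehicle replicate 2 (0.26, 0.0332).

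HLA-B, the other heavy chain among the 9 genes (chromosome 6, 31321649 to 31324989), measured 253, 256, 233 and 244 FPKM with both compounds, 275, 259, 249.3 and 226 with gefitinib, 250.4, 160.3, 222 and 238 with AZ1366, and 218, 240.3, 174 and 200.04 with vehicle. The groups overlapped in every comparison. Against vehicle, the log2 change was 0.28 ± 0.12 with gefitinib (adjusted p = 0.0389), 0.25 ± 0.12 with both compounds (0.0538) and 0.056 ± 0.12 with AZ1366 (0.689; limma, SE). The gefitinib call was lost without a filter on low values, with quantile normalization and without any 1 of 5 libraries (vehicle 3 or 4, gefitinib 1, 2 or 3), with adjusted p between 0.0634 and 0.146 in limma. The combination change was called with median-ratio scaling (0.43, adjusted p = 0.000621 in limma), with only the compared libraries (0.25, 0.0139), and without AZ1366 replicate 1 or 2 or vehicle replicate 2 (0.0384, 0.0104 and 0.0204). HLA-B and HLA-C are near-identical in long stretches to each other and to other class I genes, and how the authors assigned shared reads is not given, so the levels of both are uncertain.

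The light chain can be set against the heavy chains within each library. The ratio of B2M to the sum of HLA-B and HLA-C was 5.58 ± 0.771 with both compounds, 4.13 ± 0.440 with gefitinib, 4.24 ± 0.973 with AZ1366 and 3.02 ± 0.531 with vehicle (SD, n = 4 each). The ratio of HLA-C to HLA-B lay between 1.57 and 1.90 over all 16 libraries. These ratios were not tested.

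TAP1 and TAP2 encode the 2 subunits of the peptide transporter. Against vehicle, TAP1 rose and TAP2 fell with gefitinib and with both compounds, while with AZ1366 TAP2 fell and TAP1 was not called. TAP1 (chromosome 6, in a listed interval of 32808494 to 32821748) measured 29.1, 31.6, 25.9 and 25.8 FPKM with both compounds, 27.5, 30.01, 25.5 and 27.5 with gefitinib, 16.3, 12.3, 14.3 and 13.9 with AZ1366, and 15.8, 13.7, 14.3 and 14.9 with vehicle. The 8 libraries with gefitinib, alone or combined, lay above all 8 without it. The log2 change against vehicle was 0.89 ± 0.080 with both compounds (adjusted p = 1.6e-08), 0.87 ± 0.080 with gefitinib (5.8e-08) and -0.049 ± 0.080 with AZ1366 (0.613; limma, SE). The file gives TAP1 and PSMB8 the same interval and does not say whether counting used strand, so reads of their overlap could be shared.

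TAP2 (chromosome 6, 32789610 to 32806547) measured 10.4, 10.5, 9.86 and 10.1 FPKM with both compounds, 12.5, 13.001, 12.4 and 13.3 with gefitinib, 13.4, 10.7, 10.6 and 11.6 with AZ1366, and 15.99, 15.8, 15.1 and 14.6 with vehicle. Every treated library lay below every vehicle library. Relative to vehicle it changed on the log2 scale by -0.54 ± 0.063 with both compounds (adjusted p = 3.5e-07), -0.25 ± 0.063 with gefitinib (0.00243) and -0.39 ± 0.063 with AZ1366 (0.000102; limma, SE). The ratio of TAP1 to TAP2 was 2.75 ± 0.209 with both compounds, 2.16 ± 0.120 with gefitinib, 1.23 ± 0.0863 with AZ1366 and 0.957 ± 0.0680 with vehicle (SD, n = 4 each). Long transcripts tended to be lower in treated libraries: over 11537 loci, which share these libraries, Spearman's rho between transcript length and log2 change was -0.334 with both compounds, -0.206 with gefitinib and -0.381 with AZ1366. TAP2 has a median transcript length of 4086.5 bases and TAP1 of 2959. With a correction for length and GC content, added after seeing the data, TAP2 changed by -0.19, -0.098 and -0.14 in these comparisons and stayed called in all 3, and TAP1 rose with AZ1366 by 0.22 (adjusted p = 0.000207 in limma).

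TAPBP encodes tapasin, which holds the empty class I molecule at the transporter. Its joined locus with ZBTB22 (chromosome 6, 33267472 to 33285719) measured 82.9, 88.3, 75.8 and 84.3 FPKM with both compounds, 63.9, 58.8, 71.95 and 76.8 with gefitinib, 54.9, 40.2, 42.5 and 46.4 with AZ1366, and 48.6, 43.4, 37.4 and 41.9 with vehicle. The 8 libraries with gefitinib lay above all 8 without it, as for TAP1. The log2 change was 0.94 ± 0.098 with both compounds (adjusted p = 1.01e-07), 0.65 ± 0.098 with gefitinib (1.83e-05) and 0.096 ± 0.098 with AZ1366 (0.405; limma, SE). With median-ratio scaling the AZ1366 change was called (0.22, adjusted p = 0.0388 in limma).

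PSMB8 and PSMB9 are immunoproteasome subunits that replace the constitutive subunits PSMB5 and PSMB6, and PSMB9 had the largest change of the 9 genes with gefitinib and with both compounds. PSMB9 (chromosome 6, 32821938 to 32827628) measured 37.2, 44.2, 38.03 and 37.4 FPKM with both compounds, 28.9, 30.3, 28.1 and 30.5 with gefitinib, 13.2, 16.7, 13.5 and 15.8 with AZ1366, and 9.96, 9.504, 10.02 and 12.3 with vehicle. The 4 groups did not overlap. Against vehicle, the log2 change was 1.82 ± 0.083 with both compounds (adjusted p = 2.15e-12), 1.42 ± 0.083 with gefitinib (1.58e-10) and 0.46 ± 0.083 with AZ1366 (0.000245; limma, SE), and mean FPKM with both compounds was 3.76 times that with vehicle. PSMB9 has a median transcript length of 782 bases. With the length and GC correction these log2 changes were smaller, at 1.59, 1.31 and 0.35, all still called.

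PSMB8, listed in the interval of TAP1, measured 74.8, 88.2, 69.8 and 70.2 FPKM with both compounds, 57.7, 60.7, 59.1 and 54.8 with gefitinib, 35.7, 38.5, 34.3 and 35.7 with AZ1366, and 35.01, 28.1, 34.5 and 32.4 with vehicle. The combination libraries lay above the gefitinib libraries, and both above the AZ1366 and vehicle libraries, which overlapped. Relative to vehicle it changed on the log2 scale by 1.19 ± 0.076 with both compounds (adjusted p = 1.54e-10), 0.82 ± 0.076 with gefitinib (5.69e-08) and 0.15 ± 0.076 with AZ1366 (0.102; limma, SE). The AZ1366 change was called with median-ratio scaling (0.27, adjusted p = 0.00602 in limma) and with quantile normalization (0.24, 0.0138).

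NLRC5, the class I transactivator (chromosome 16, 57050986 to 57117436), was the lowest of the 9 genes, above only 19.0% of tested loci. It measured 3.34, 3.25, 3.03 and 2.98 FPKM with both compounds, 3.87, 3.82, 3.46 and 3.19 with gefitinib, 3.14, 2.18, 2.14 and 2.35 with AZ1366, and 3.71, 2.63, 2.897 and 3.21 with vehicle. The groups overlapped in each of the 5 pairwise comparisons. The log2 change was 0.019 ± 0.090 with both compounds (adjusted p = 0.856), 0.16 ± 0.090 with gefitinib (0.126) and -0.25 ± 0.090 with AZ1366 (0.0224; limma, SE). The AZ1366 fall was lost with only the compared libraries and without any 1 of 5 libraries (vehicle 1 or 4, AZ1366 2, 3 or 4), with adjusted p between 0.0523 and 0.0917 in limma, and with the length and GC correction it was 0.085 (adjusted p = 0.106 in limma). NLRC5 has the longest transcript of the 9 genes, with a median of 6724 bases, and with that correction its change was 0.34 with gefitinib and 0.47 with both compounds, called in both (2.82e-06 and 2.51e-08 in limma). The gefitinib change was also called with quantile normalization, with median-ratio scaling and without vehicle replicate 1 (0.23, adjusted p = 0.0363 in limma), and the combination change with both of these scalings.

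**Figure D2:**
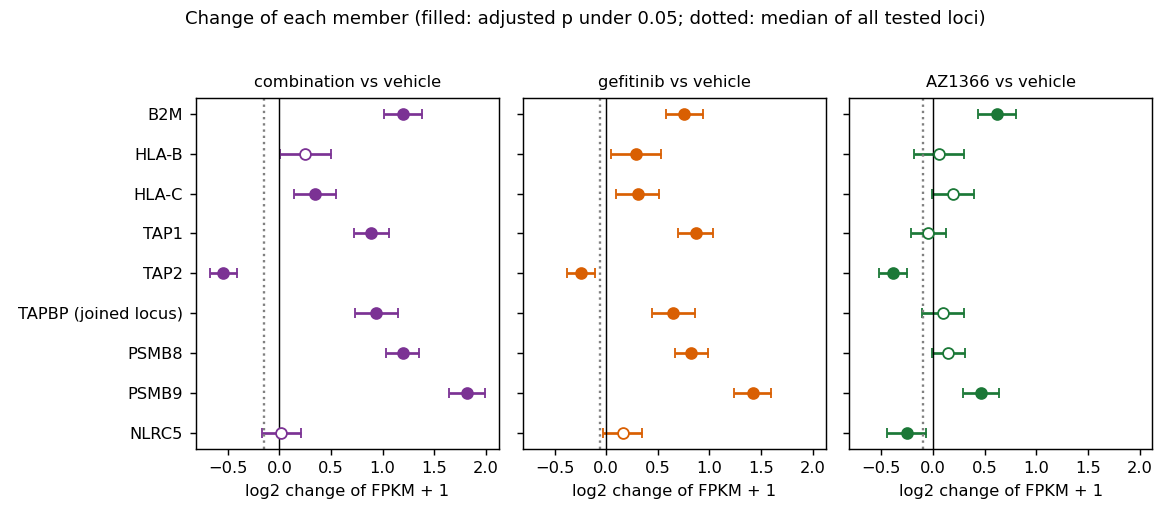
Log2 change of FPKM + 1 with its 95% confidence interval for the 9 genes against vehicle, for the combination, gefitinib and AZ1366. Filled points passed an adjusted p of 0.05 and the dotted line is the median of all tested loci. PSMB9 changed most in the combination and gefitinib panels, at 1.82 and 1.42, and TAP2 lies below 0 in all 3 panels.

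The combination can be set against each compound alone. Relative to gefitinib, 3 of the 8 genes rose and 1 fell, where 52.5% of loci were called, 15.3% as higher and 37.2% as lower (limma, adjusted p under 0.05). The 3 were B2M (0.44 ± 0.087, adjusted p = 0.000594), PSMB9 (0.40 ± 0.083, 0.000991) and PSMB8 (0.37 ± 0.076, 0.000843), and in each the combination libraries lay above all gefitinib libraries. Such separation held for 14.2% of loci higher and 34.4% lower. TAP2 changed by -0.30 ± 0.063 (0.00101), also without overlap, and by -0.088 with the length and GC correction (0.0829). TAP1, HLA-B and HLA-C differed from gefitinib by 0.021, -0.032 and 0.041, and the 95% interval of none excluded 0 in limma. TAP1 was called with median-ratio scaling (0.13, adjusted p = 0.044 in limma) and with the length and GC correction (0.19, 0.000694). The joined TAPBP locus rose by 0.29 ± 0.098 (0.0205), a call that was lost without gefitinib replicate 1 or 2 or without combination replicate 2. For B2M the call was lost with quantile normalization (0.15, adjusted p = 0.227 in limma). With the length and GC correction B2M rose by 0.29, PSMB9 by 0.28 and PSMB8 by 0.30, all still called.

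Relative to AZ1366, 5 of the 8 genes rose with the combination and 1 fell, where 62.6% of loci were called, 26.9% as higher and 35.7% as lower (limma, adjusted p under 0.05). PSMB9 rose by 1.35 ± 0.083 (adjusted p = 2.92e-10), PSMB8 by 1.05 ± 0.076 (2.4e-09), TAP1 by 0.94 ± 0.080 (2e-08), B2M by 0.58 ± 0.087 (1.67e-05) and NLRC5 by 0.27 ± 0.090 (0.0137). For the first 4 the combination libraries lay above all AZ1366 libraries, and for NLRC5 the groups overlapped. Separation of this kind held for 22.7% of loci higher and, as for TAP2, for 30.8% lower. TAP2 changed by -0.16 ± 0.063 (0.0383), and without AZ1366 replicate 1, the library that stood apart, by -0.088 (adjusted p = 0.136 in limma). This call was also lost without AZ1366 replicate 4 or combination replicate 1, 3 or 4, with adjusted p between 0.0541 and 0.0933 in limma. The joined TAPBP locus rose by 0.84 ± 0.098 (8.96e-07).

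No departure from the sum of the 2 single responses was called for these genes. For the interaction, limma called 0 of 8 genes, 0 of 8 also had an unadjusted p under 0.05, and 1.82% of all tested loci were called, 0.326% as higher and 1.49% as lower. The largest departure was that of PSMB8, at 0.22 ± 0.11 with a 95% interval of -0.0038 to 0.45 (adjusted p = 0.357). B2M departed by -0.18, with an interval of -0.44 to 0.078. Over the 8 genes the intervals reached from -0.44 to 0.45, and that of TAP2 only from -0.097 to 0.28. For each gene, departures inside its own interval cannot be told from none here.

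Transcripts of the catalytic subunits that replace each other were compared as a ratio within each library, which a scaling factor per library cannot change. These are RNA ratios, and the exchange of subunits in proteasomes was not measured. PSMB8 to PSMB5 was 0.524 ± 0.0741 with both compounds, 0.427 ± 0.0308 with gefitinib, 0.210 ± 0.0238 with AZ1366 and 0.210 ± 0.0216 with vehicle. PSMB9 to PSMB6 was 0.181 ± 0.00728 with both compounds, 0.157 ± 0.00264 with gefitinib, 0.0808 ± 0.0103 with AZ1366 and 0.0556 ± 0.00692 with vehicle. PSMB10 to PSMB7, the third such pair, was 0.418 ± 0.0113 with both compounds, 0.359 ± 0.0198 with gefitinib, 0.152 ± 0.0109 with AZ1366 and 0.136 ± 0.0132 with vehicle (SD, n = 4 each). The groups did not overlap in 13 of 15 comparisons, each with p = 0.0286 in a two-sided exact permutation test, the smallest that 70 assignments allow, and 0.033 after adjustment over the 15. The exceptions were PSMB8 to PSMB5 and PSMB10 to PSMB7 with AZ1366 against vehicle (adjusted p = 0.971 and 0.153 in the exact test). PSMB9 to PSMB6 did differ between AZ1366 and vehicle, by 0.54 on the log2 scale. Single loci separated from vehicle as higher or lower in 25.2% and 35.7% with gefitinib and 14.6% and 26% with AZ1366. With both compounds they did so in 28.4% and 48.1% against vehicle, 14.2% and 34.4% against gefitinib, and 22.7% and 30.8% against AZ1366. The share of other within-library ratios that separate was not computed, and the 15 comparisons reuse the same ratios and groups. The constitutive subunits themselves changed by at most 0.25 on the log2 scale in any of the 5 pairwise comparisons, and the sign for PSMB6 and PSMB7 with both compounds against vehicle turned with the length and GC correction.

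**Figure D3:**
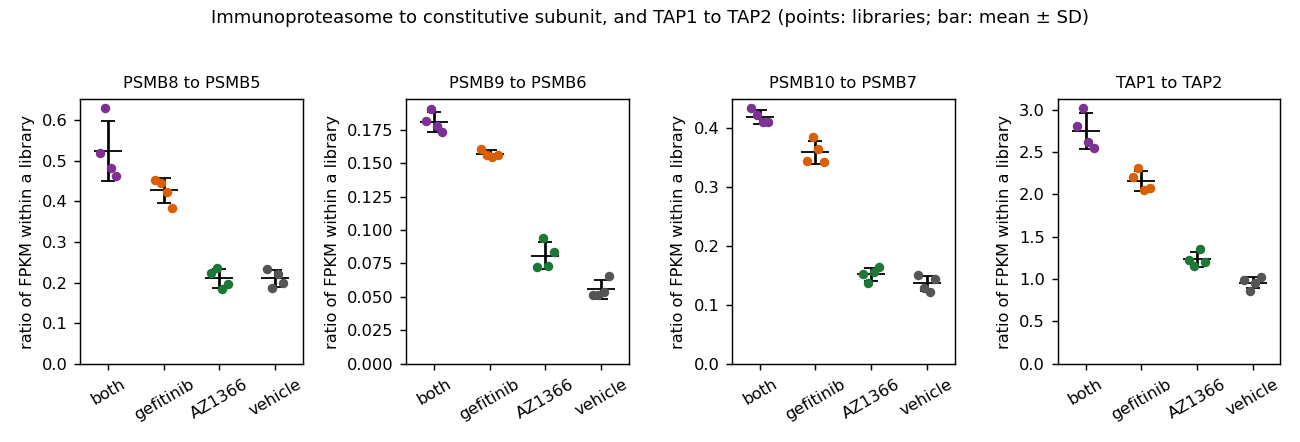
Ratio of FPKM within each library (points) of each immunoproteasome subunit to the constitutive subunit it replaces, and of TAP1 to TAP2, with the mean and SD of each group of 4 (bars), on axes that start at 0. In all 4 panels the combination libraries are highest and the gefitinib libraries next, and in the PSMB8 and PSMB10 panels the AZ1366 and vehicle libraries overlap.

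The other parts of the pathway were read from 7 lists of 59 genes. The calls over all loci serve as the background for each list: 27.7% rose and 36.9% fell with gefitinib, 18.6% and 39.8% with AZ1366, and 29.9% and 49.4% with both compounds. Among the other heavy chains, all 6 rose with gefitinib and all 6 with both compounds, against 27.7% and 29.9% of loci, with median log2 changes of 0.50 and 0.68 (limma), and these counts were the same with quantile, median-ratio and length and GC adjusted values. MR1, which presents vitamin metabolites, averaged 8.63 ± 0.222 FPKM with both compounds, 6.78 ± 0.416 with gefitinib, 4.43 ± 0.317 with AZ1366 and 3.10 ± 0.181 with vehicle (SD, n = 4 each). HLA-E, the ligand of the NK receptor NKG2A, averaged 202 ± 10.5 FPKM with both compounds, 174 ± 7.55 with gefitinib, 107 ± 11.7 with AZ1366 and 116 ± 9.09 with vehicle. HLA-F rose by 0.98 and HLA-G by 0.56 with both compounds, and HFE, an iron regulator of this family, by 0.36. With AZ1366 alone 3 of the 6 rose, among them MR1 by 0.40 and HFE by 0.17. The levels of HLA-F and HLA-G carry the same uncertainty of shared reads as HLA-B.

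The next list joins the third immunoproteasome subunit, PSMB10, with 3 activator genes and the assembly factor POMP. Of the 5 genes 3 rose and 1 fell with gefitinib, against 27.7% and 36.9% of loci (limma). With both compounds 4 rose and 1 fell, against 29.9% and 49.4%, and with AZ1366 3 rose and 1 fell, against 18.6% and 39.8%. POMP rose by 0.57 with both compounds and 0.69 with AZ1366, and its change of 0.20 with gefitinib was not called. PSMB10 averaged 89.1 ± 2.85 FPKM with both compounds, 66.5 ± 4.14 with gefitinib, 32.9 ± 1.88 with AZ1366 and 27.3 ± 2.15 with vehicle (SD, n = 4 each). PSME1 and PSME2, the subunits of the interferon-inducible PA28 activator, rose by 0.87 and 0.67 with both compounds and by 0.69 and 0.47 with gefitinib. PSME3, the nuclear activator that interferon does not induce, fell in all 3 groups, by 0.61, 0.39 and 0.24 with both compounds, gefitinib and AZ1366.

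Loading and trimming genes did not share one direction. Of 9 genes 3 rose and 2 fell with gefitinib, against 27.7% and 36.9% of loci, and 2 rose and 4 fell with both compounds, against 29.9% and 49.4% (limma). With both compounds the balance depended on the processing: 4 rose and 5 fell with quantile normalization, 4 rose and 1 fell with median-ratio scaling, and 4 rose and 2 fell with the length and GC correction. With gefitinib 1 rose and 3 fell under that correction. TAPBPL, a tapasin-related peptide editor, averaged 11.7 ± 0.847 FPKM with both compounds, 12.1 ± 0.886 with gefitinib, 6.81 ± 0.976 with AZ1366 and 7.22 ± 1.01 with vehicle (SD, n = 4 each). HSPA5, the chaperone BiP, fell by 0.58 with both compounds, 0.26 with gefitinib and 0.32 with AZ1366 (limma). HM13, a signal peptide peptidase, fell by 0.33 with both compounds and with gefitinib and rose by 0.15 with AZ1366. The median change of this list with both compounds was -0.098 as deposited and 0.083 with median-ratio scaling. It was -0.25 with quantile normalization and -0.080 with the length and GC correction.

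Of 13 tested genes that act on class I transcription, 7 rose and none fell with gefitinib, against 27.7% and 36.9% of loci (limma). With both compounds 8 rose and 3 fell, against 29.9% and 49.4%, and with AZ1366 4 rose and 3 fell, against 18.6% and 39.8%. With median-ratio scaling 10 rose and 1 fell with both compounds, and 6 rose and 1 fell with AZ1366. With the length and GC correction 9 rose and 1 fell with both compounds, and 7 rose and 1 fell with AZ1366. IRF9, the DNA-binding subunit of the interferon-stimulated complex ISGF3, averaged 37.4 ± 1.26 FPKM with both compounds, 30.2 ± 1.01 with gefitinib, 21.1 ± 3.97 with AZ1366 and 12.2 ± 1.63 with vehicle (SD, n = 4 each). STAT2, its partner, rose by 0.99 with both compounds, 0.89 with gefitinib and 0.27 with AZ1366, and IRF2 by 0.85, 0.62 and 0.36. RFX5, which binds the X box of class I promoters, rose by 0.75 with both compounds and 0.63 with gefitinib. IRF1, named after its values were seen, rose with gefitinib by 0.50 and with AZ1366 changed by -0.18, which was not called. Of 8 tested interferon receptor, kinase and SOCS genes, 5 rose and 2 fell with gefitinib, against 27.7% and 36.9% of loci, and 4 rose and 3 fell with both compounds, against 29.9% and 49.4% (limma). With both compounds 5 rose and 2 fell with median-ratio scaling, and 6 rose and 2 fell with the length and GC correction. The receptor subunits IFNGR1, IFNAR2, IFNGR2 and IFNAR1 rose with both compounds by 0.84, 0.93, 0.69 and 0.46, while the kinase gene TYK2, named after its values were seen, fell by 0.28.

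Of 10 tested genes for ligands of NK cell receptors, 2 rose and 7 fell with both compounds, against 29.9% and 49.4% of loci (limma). With gefitinib 2 rose and 6 fell, against 27.7% and 36.9%, and with AZ1366 4 rose and 5 fell, against 18.6% and 39.8%. With median-ratio scaling 3 rose and 5 fell with both compounds, and 4 rose and 3 fell with AZ1366. With the length and GC correction 2 rose and 7 fell with both compounds, and 2 rose and 4 fell with AZ1366. PVR, a ligand of DNAM-1 and TIGIT, averaged 10.5 ± 1.33 FPKM with both compounds, 19.4 ± 1.54 with gefitinib, 19.0 ± 3.74 with AZ1366 and 33.2 ± 3.31 with vehicle (SD, n = 4 each). MICA, a ligand of NKG2D, averaged 2.63 ± 0.147 FPKM with both compounds, 3.30 ± 0.266 with gefitinib, 4.08 ± 0.570 with AZ1366 and 5.50 ± 0.483 with vehicle. MICB fell by 0.57 and ULBP3 by 0.62 with both compounds.

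**Figure D4:**
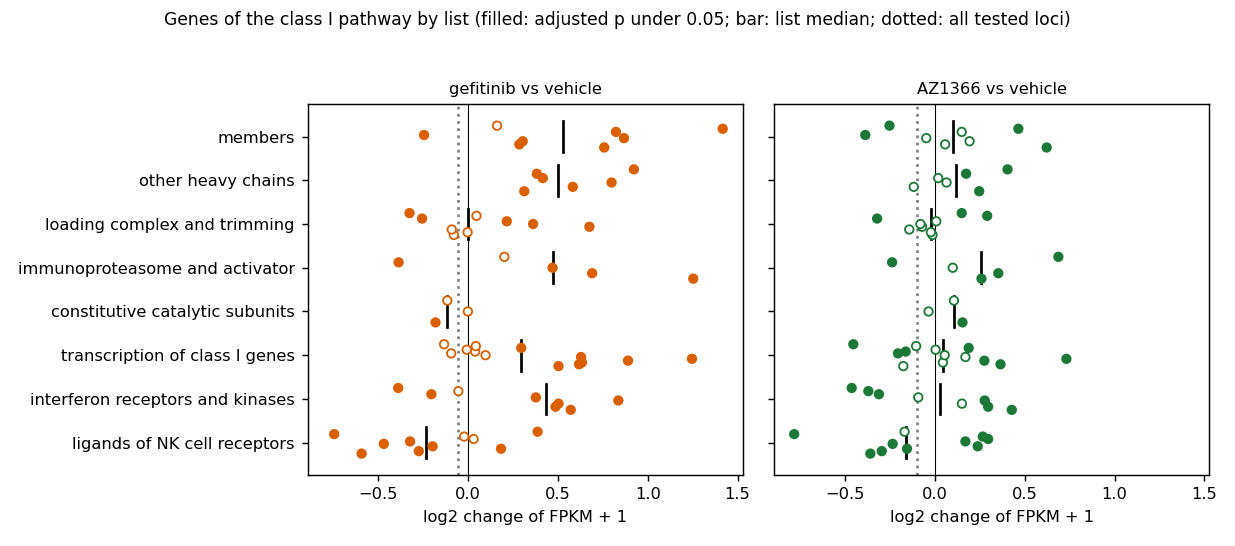
Log2 change of FPKM + 1 of each of the 8 genes matched by symbol and of the tested genes in the 7 other pathway lists, with gefitinib and with AZ1366 against vehicle. Filled points passed an adjusted p of 0.05, vertical bars are list medians and the dotted line is the median of all tested loci. Median changes with gefitinib lie near 0.50 for the other heavy chains and at -0.24 for the NK receptor ligands.

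The loci outside these lists whose pattern was most like that of the 8 genes were PALM, PPIP5K1, HDAC5, PDLIM5, EDIL3, DNASE2, PML and PLD2. Their Pearson r with the mean standardised log2 value of the 8 genes lay between 0.974 for PLD2 and 0.984 for PALM over 16 libraries, which fall into the 4 groups. PML, which encodes the scaffold of PML nuclear bodies, averaged 39.1 ± 2.25 FPKM with both compounds, 34.995 ± 1.35 with gefitinib, 22.1 ± 3.09 with AZ1366 and 22.2 ± 2.72 with vehicle (SD, n = 4 each). PALM averaged 2.999 ± 0.393 FPKM with both compounds, 2.95 ± 0.260 with gefitinib, 1.38 ± 0.236 with AZ1366 and 1.33 ± 0.168 with vehicle. All 8 rose with gefitinib and with both compounds and none was called with AZ1366 (limma), which the choice by likeness partly fixes.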

How the data were processed

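PolyA RNA of HCC4006 cells was sequenced in 16 libraries, made from total RNA with a TruSeq version 2 kit per the labels' protocols; whether the kit's strand was kept is not stated. The authors deposited FPKM for 24293 loci on hg19, and the tools listed per the submitters' processing notes are Cuffdiff, Cufflinks (version 1.3.0) and TopHat (version 1.4.1), with no roles given. Read counts were not used here, which leaves the depth unknown, and counting intervals are not stated.

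Groups came from the treatment labels. Where a symbol had several loci, the one with the highest mean was used; the other 5 to 7 loci of each HLA, TAP and PSMB gene lie on alternative chromosome 6 haplotypes, and all 1147 haplotype loci were at 0. Loci with a mean of at least 1 FPKM (11647) were tested on log2(FPKM + 1) with limma (version 3.58.1, R 4.3.3), with 4 groups, a mean-variance trend, 12 residual degrees of freedom, and Benjamini-Hochberg adjustment over all tested loci (threshold 0.05), in 6 comparisons. Ratios of subunits were compared by two-sided exact permutation tests. Same-numbered libraries of the combination and gefitinib deviated together (r of 0.224 to 0.321, all 4 pairs above 0.1). This pattern comes from the data, not the labels. The main limma fit and the exact tests did not pair libraries by number in any comparison. The method was tested on simulated data. Other genes were named by rule, though some results are not reported here: the heavy chains, the 3 constitutive subunits, up to 4 genes per other list with the smallest p in the combination against vehicle, the 8 loci most like the members, and DUSP6 and AXIN2. The members, lists and rules were chosen with earlier results of these data known. NFYA was read from a locus with joined symbols. Promoter sequences are from RefSeq (GRCh38.p14), and transcript lengths from GENCODE. Alternatives were another pseudocount, filter, scaling, moderation, set of libraries or row choice, a replicate block and leaving out each library; a length and GC correction (5 spline terms each) and leaving out vehicle 1 and AZ1366 1 together were chosen after seeing the data.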

Additional observations from a re-analysis of the deposited data

Results flagged for a closer look

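In 160 groups of 4 libraries, over the genes named by rule, 7 single values (4.38%) stood far from the other 3 of their group, where chance gives about 1 in 20. B2M was at 1408 FPKM in vehicle replicate 1, below the other vehicle libraries at 1699 to 1722. PSMB9 was at 44.23 FPKM in combination replicate 2, above the others at 37.2 to 38.03. MR1 was at 8.301 FPKM in combination replicate 3, TAPBPL at 8.266 FPKM and PSME1 at 126.9 FPKM in AZ1366 replicate 1, HM13 at 135.7 FPKM in vehicle replicate 2 and IRF9 at 31.73 FPKM in gefitinib replicate 1. Without vehicle 1 and AZ1366 1 together, B2M still rose in all 3 treated groups against vehicle.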

How the results depend on the processing

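The rises of B2M, TAP1, PSMB8 and PSMB9 with gefitinib and with both compounds, and the fall of TAP2 in all 3 treated groups, kept their direction and call under every alternative run. For AZ1366 against vehicle, 2 of 8 genes were higher and 2 lower as reported. Median-ratio scaling gave 4 higher, and quantile normalization and the length and GC correction each gave 3. With only the compared libraries and with the length and GC correction 1 was lower. With a minimum mean of 5 FPKM 1 was lower, as NLRC5 was below that filter and not tested. For the combination against gefitinib, the length and GC correction gave 5 higher and 0 lower. For the combination against AZ1366, 0 were lower with quantile normalization, with only the compared libraries, with the length and GC correction and without vehicle 1 and AZ1366 1. The interaction called 620 loci with quantile normalization, 419 with median-ratio scaling and 642 with the length and GC correction, against 212, and 0 of the 8 genes in each.

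With the length and GC correction, signs turned for TAP1 (0.22), NLRC5 (0.085) and DUSP6 (0.14) with AZ1366 against vehicle, for PSMB6 (-0.015) and PSMB7 (-0.14) with both compounds against vehicle, and for NLRC5 (0.13) and IFNAR1 (0.20) with both against gefitinib; the causes were not tested. Leaving out 1 library at a time gave 4 to 7 genes higher with gefitinib, 2 to 3 higher and 1 to 2 lower with AZ1366, 5 to 6 higher with both compounds, 0 to 1 lower for the combination against AZ1366, and 101 to 513 loci for the interaction (513 without AZ1366 1, 101 without vehicle 4). The 15 subunit ratio results held under the alternatives run for them, a pseudocount of 1 FPKM and leaving out each library. Without a library only the size of the difference was read, with no p-value. Quantile normalization and the length and GC correction were not run on the ratios.

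Deviations from the group means correlated above 0.1 in 16 of 24 same-numbered pairs (66.7%, range -0.447 to 0.539), against 25 of 72 differently numbered pairs (34.7%), and 4 of 16 libraries matched their own number best. For the combination against gefitinib all 4 pairs were above 0.1, and in each other comparison at least 1 was not. With the replicate block, 7864, 7131, 9388, 6522, 7613 and 227 loci were called with gefitinib, AZ1366 and both compounds against vehicle, the combination against gefitinib and against AZ1366, and the interaction, and HLA-B was called with both compounds (0.25, adjusted p = 0.0477 in limma); no other call of the 9 genes changed. The unknown depth limits low genes such as NLRC5 most.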
